A study of Mus musculus with 6 samples.

Results

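Interferon response genes, the transcripts that cells make when interferon reaches its receptors, were followed in mouse ear skin. The set was a list of 35 gene symbols covering the ISG15 conjugation enzymes, transcription factors, nucleic acid sensors and antiviral effectors. Of these, 33 were among the 18482 genes of the deposited table, and all 33 passed the filter on low counts. Mx1 and Mx2 are not analysed here. Polyadenylated RNA was measured at postnatal day 21 in tamoxifen-treated mice, in 3 control libraries and 3 libraries with lymphatic endothelial deletion of Kdr, the gene of the growth factor receptor VEGFR2. The deletion group is called lecko, as in the labels, and the controls were littermates that carried the same tamoxifen treatment. The sources used here do not give the driver of the recombinase, the animal behind each library or which of the tamoxifen schedules listed for the series applied to these mice.

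Type I interferons bind the receptor chains IFNAR1 and IFNAR2 and activate the kinases JAK1 and TYK2. STAT2 is then phosphorylated and joins IRF9 in a complex that binds the interferon-stimulated response element (ISRE) in promoters. Interferon gamma instead acts largely through another promoter element, the gamma-activated sequence (GAS). Many of the products block viral RNA, translation or budding, and some, such as USP18, switch the signal off again. In skin the pathway is known from defence against viruses, wound repair and inflammatory disease.

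The shared promoter letters are shown first. The list holds genes known to respond to interferon, which acts through the ISRE, so a high share is not independent support for the list. RefSeq promoter windows of GRCm38.p6, from 250 bases before to 50 bases after the start site, were found for 25 of the 33 genes. The ISRE core was searched as GAAANNGAAA on both strands, where the opposite strand reads TTTCNNTTTC. It was present in 15 of 25 of these genes, 60.0%, and in 3.99% of 27025 genes with a window (3.44% of all 32851 windows). The GAS core TTCNNNGAA, which reads alike on both strands, was present in 5 of 25 and in 9.55% of all genes with a window. Of the 5 GAS matches in the 29 windows of these genes, 1 overlapped an ISRE match. These are letter matches in a window and not measured binding sites.

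The 6 windows below are those of Rsad2 (viperin, which makes a chain-terminating nucleotide), Gbp2 (a guanylate-binding GTPase), Trim30a (a TRIM-family ubiquitin ligase), Eif2ak2 (the kinase PKR, which stops translation on double-stranded RNA), Ifit1 (which holds viral RNA with foreign 5′ ends) and Isg15 (a ubiquitin-like protein). Rsad2, Gbp2, Trim30a and Eif2ak2 came from a rule on test order, and Ifit1 and Isg15 were added after values were seen because both ranged widely between libraries. Each is printed 5′ to 3′ on the gene's own strand, with the ISRE core in capitals. The windows lie at chr12:26456403-26456702 on the minus strand (Rsad2), chr3:142620413-142620712 on the plus strand (Gbp2), chr7:104465144-104465443 on the minus strand (Trim30a), chr17:78882523-78882822 on the minus strand (Eif2ak2), chr19:34640639-34640938 on the plus strand (Ifit1) and chr4:156200769-156201068 on the minus strand (Isg15).
Rsad2: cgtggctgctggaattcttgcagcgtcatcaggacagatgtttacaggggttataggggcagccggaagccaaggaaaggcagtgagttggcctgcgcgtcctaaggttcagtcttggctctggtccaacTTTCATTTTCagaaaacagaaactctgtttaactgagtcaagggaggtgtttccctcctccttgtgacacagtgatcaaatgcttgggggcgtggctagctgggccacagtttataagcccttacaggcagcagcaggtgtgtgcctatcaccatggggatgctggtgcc
Gbp2: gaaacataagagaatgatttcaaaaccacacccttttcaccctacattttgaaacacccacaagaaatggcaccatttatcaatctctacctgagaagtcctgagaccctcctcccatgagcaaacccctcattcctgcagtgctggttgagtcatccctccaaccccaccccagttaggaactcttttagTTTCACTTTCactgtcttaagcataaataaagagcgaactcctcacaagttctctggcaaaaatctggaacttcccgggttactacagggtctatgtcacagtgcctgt
Trim30a: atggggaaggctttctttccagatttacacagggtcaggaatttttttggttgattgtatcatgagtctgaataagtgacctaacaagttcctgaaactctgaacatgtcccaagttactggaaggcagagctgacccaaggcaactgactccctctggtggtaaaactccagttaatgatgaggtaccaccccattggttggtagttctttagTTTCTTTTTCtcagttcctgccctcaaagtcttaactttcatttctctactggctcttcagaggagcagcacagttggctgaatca
Eif2ak2: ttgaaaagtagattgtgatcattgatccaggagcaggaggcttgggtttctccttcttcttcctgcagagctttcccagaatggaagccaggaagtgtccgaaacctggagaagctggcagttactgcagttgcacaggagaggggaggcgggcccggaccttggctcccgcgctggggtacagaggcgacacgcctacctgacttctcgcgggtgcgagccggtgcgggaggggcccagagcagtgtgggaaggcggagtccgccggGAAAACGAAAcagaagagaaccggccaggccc
Ifit1: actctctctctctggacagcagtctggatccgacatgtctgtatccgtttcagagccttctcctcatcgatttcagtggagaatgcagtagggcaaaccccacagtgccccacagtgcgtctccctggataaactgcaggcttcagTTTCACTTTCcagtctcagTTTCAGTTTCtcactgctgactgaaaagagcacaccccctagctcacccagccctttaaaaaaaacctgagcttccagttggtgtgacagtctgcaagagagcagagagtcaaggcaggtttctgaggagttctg
Isg15: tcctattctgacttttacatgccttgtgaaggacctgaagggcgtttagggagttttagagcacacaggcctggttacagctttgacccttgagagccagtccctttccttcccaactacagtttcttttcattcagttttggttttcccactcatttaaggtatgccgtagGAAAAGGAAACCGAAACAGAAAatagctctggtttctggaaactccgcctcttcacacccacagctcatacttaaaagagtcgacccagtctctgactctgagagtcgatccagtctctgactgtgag
The match began 120 bases before the start site in Rsad2, 59 before in Gbp2 and 36 before in Trim30a. In Eif2ak2 it lay after the start site. Ifit1 had 2 separate matches, which began 104 and 85 bases before the start. Isg15 had 3 overlapping matches, which began between 78 and 66 bases before it. The 15 genes with the core had a median within-group SD of log2 CPM of 0.93 (range 0.49 to 2.05). The 10 without it had a median of 0.84 (range 0.39 to 1.75), so the spread described next was seen with and without the letters. The 8 genes with no window, which could not be placed, had a median of 1.13 (range 0.59 to 1.49).

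Library totals were 17242921 to 17825135 estimated counts, and values below are CPM, the counts scaled to a common library size. Kdr was 31.3 to 38.5 CPM in controls and 9.76 to 11.2 CPM in lecko, a log2 fold change of -1.72 (SE 0.10, edgeR adjusted p = 0.000258), in the direction of the labels. Keratinocyte markers, which check the skin label, summed to 23533 to 27060 CPM. Y-linked transcripts numbered 4272 and 4564 counts in controls 2 and 3 and 4 to 21 in the other 4 libraries, so control 1 was the sole control with so few. No library was a copy of another, since the chi-square per degree of freedom between same-group libraries was 8.43 to 17.45.

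The interferon response genes varied together between libraries, and the variation cut across the groups. Control 3 and lecko 2 held the 2 lowest values in 32 of 33 genes, against 8.41% of all 14856 genes tested; these libraries were picked out after the values were seen. Lecko 1 was the highest library in 29 genes, lecko 3 in 3 and control 1 in 1. Control 3 was the lowest in 25 genes and lecko 2 in 8. The summed level of the 33 genes was 876.8, 658.9 and 303.2 CPM in controls 1 to 3 and 1116.3, 330.1 and 910.2 CPM in lecko 1 to 3. Each group therefore held high and low libraries, and the lowest lecko library was close to the lowest control. In bulk skin, fewer responding cells and less RNA per cell cannot be told apart.

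**Figure D1:**
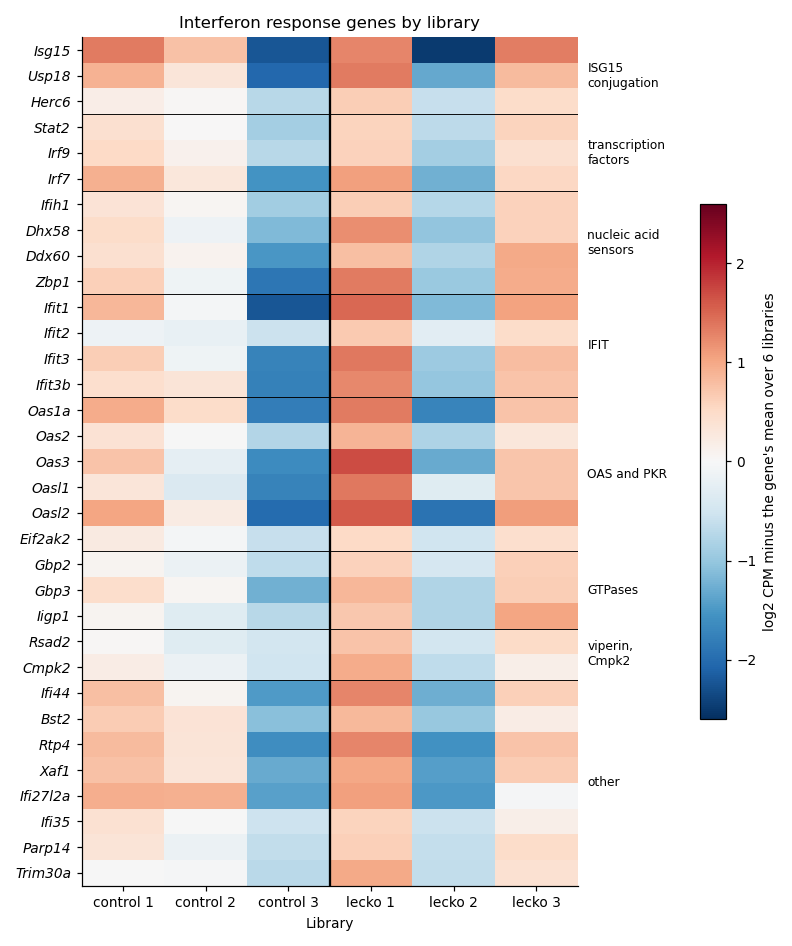
Each row is an interferon response gene, each column a library, and the colour is log2 CPM minus the gene's mean over the 6 libraries. Control 3 and lecko 2 are blue in nearly every row and lecko 1 is red, and the vertical line separates the 3 controls from the 3 lecko libraries.

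Isg15, the ubiquitin-like modifier, had the largest within-group spread of the set. Its values were 37.6, 25.2 and 3.08 CPM in controls 1 to 3 and 35.7, 2.54 and 37.2 CPM in lecko 1 to 3. The highest control was 12.2-fold above the lowest, and the highest lecko library was 14.6-fold above the lowest. The log2 fold change between groups was 0.19 (SE 1.24, 95% interval -3.16 to 3.55, edgeR adjusted p = 0.973). Usp18, which removes ISG15 from proteins and dampens receptor signalling, was 14.0, 9.31 and 1.71 CPM in controls and 19.1, 2.88 and 13.2 CPM in lecko. Its groups overlapped across most of their range (log2 fold change 0.49, SE 0.97, adjusted p = 0.909). Herc6, the main ISG15 ligase of mice, was 7.90, 7.13 and 4.17 CPM in controls and 10.9, 4.52 and 9.70 CPM in lecko, with the same low libraries but a narrower range (SD 0.59).

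The transcription factors that carry the signal were lowest in the same pair of libraries. Stat2 was 80.3, 60.4 and 32.4 CPM in controls and 89.9, 37.4 and 89.6 CPM in lecko. Irf9, the DNA-binding partner of STAT2, was 96.3, 72.7 and 40.7 CPM in controls and 102, 36.5 and 89.7 CPM in lecko. Irf7, the factor that amplifies interferon production, was 58.7, 37.9 and 10.4 CPM in controls and 65.3, 12.9 and 45.3 CPM in lecko. In all 3 genes the low control and the low lecko library lay side by side, below the other 4. Log2 fold changes were 0.33 (SE 0.51) for Stat2, 0.12 (SE 0.53) for Irf9 and 0.21 (SE 0.88) for Irf7, with adjusted p of 0.880, 0.959 and 0.958 in edgeR. Irf7 spread more within groups (SD 1.25) than Stat2 (0.70) or Irf9 (0.73).

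**Figure D2:**
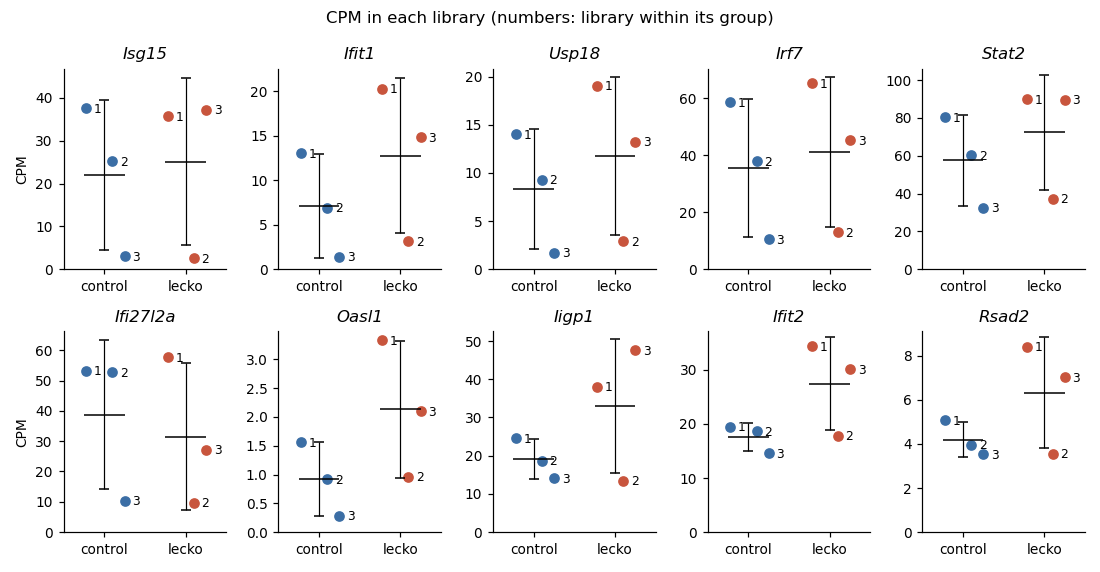
CPM of 10 genes in each library, numbered within its group, with the group mean and SD (n = 3). Isg15 runs from 3.08 to 37.6 CPM in controls and from 2.54 to 37.2 CPM in lecko, while Ifit2 and Rsad2 have narrow control ranges and overlap through lecko 2.

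The cytoplasmic sensors were Ifih1 (MDA5, which senses long double-stranded RNA), Dhx58 (LGP2, its partner), Ddx60 (a helicase linked to the RIG-I-like receptors) and Zbp1 (a sensor of Z-form nucleic acid that can trigger necroptosis). The highest control lay 2.4-fold (Ifih1) to 6.18-fold (Zbp1) above the lowest, and the corresponding folds in lecko were 2.62 (Ifih1) to 5.17 (Zbp1). Zbp1 was the most variable of the 4 relative to its level, at 6, 3.56 and 0.971 CPM in controls and 9.93, 1.92 and 7.66 CPM in lecko. The 4 log2 fold changes were 0.37 to 0.89, each below the gene's own within-group SD, and the smallest adjusted p was 0.797.

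Among the IFIT proteins, which bind viral RNA, Ifit1 was 13, 6.90 and 1.43 CPM in controls and 20.3, 3.17 and 14.9 CPM in lecko. Its log2 fold change was 0.84 with a 95% interval of -1.79 to 3.48 (adjusted p = 0.839). Ifit2 differed from its relatives in being the least variable gene of the set. It was 19.5, 18.7 and 14.6 CPM in controls and 34.4, 17.9 and 30.1 CPM in lecko, so lecko 1 and 3 exceeded every control and lecko 2 lay within the control range. Its log2 fold change was 0.64 (SE 0.25, 95% interval 0.03 to 1.26), with an unadjusted edgeR p of 0.0428 and an adjusted p of 0.562. Ifit3 and Ifit3b had log2 fold changes of 0.80 and 0.65 and within-group SDs of 1.21 each. The transcripts of Ifit3 and Ifit3b were 97.8% identical over 1700 aligned positions and their estimated counts were not whole in any of the 6 libraries, so the division of reads between them is uncertain.

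The OAS proteins make the 2-5A messenger that activates RNase L, and the mouse OAS-like protein OASL1 lacks that activity. Oasl2 was 42.9, 24.4 and 5.14 CPM in controls and 63.7, 5.43 and 44.8 CPM in lecko. Its lowest lecko library was 11.7-fold below its highest. Oas1a was 11.1, 7.93 and 1.54 CPM in controls and 14.6, 1.64 and 9.53 CPM in lecko, and its transcript was 97.5% identical to Oas1g over 1860 positions, with counts that were never whole. Oasl1, which represses translation of Irf7 mRNA in mice, had the largest log2 fold change of the set. It was 1.56, 0.920 and 0.285 CPM in controls and 3.33, 0.961 and 2.10 CPM in lecko, so the groups overlapped through lecko 2 and control 1. The log2 fold change was 1.21 (SE 0.61, 95% interval -0.24 to 2.66, adjusted p = 0.624). This estimate rests on few counts, and it ranged from 0.72 to 1.81 when each library was left out. Oas2 and Oas3 had log2 fold changes of 0.35 and 0.93, below their SDs of 0.73 and 1.37. Eif2ak2 moved least in this family, at 63.1, 51.7 and 35.6 CPM in controls and 76.5, 37.4 and 72.2 CPM in lecko (SD 0.50, adjusted p = 0.833).

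The interferon-induced GTPases, which attack the vacuoles of intracellular pathogens, were represented by Gbp2, Gbp3 and Iigp1. Gbp2 was 15.5, 13.2 and 9.25 CPM in controls and 22.3, 10.8 and 22.6 CPM in lecko (log2 fold change 0.56, SE 0.33, adjusted p = 0.682). Iigp1 was 24.6, 18.7 and 14.1 CPM in controls and 38.1, 13.5 and 47.6 CPM in lecko (log2 fold change 0.79, SE 0.52, adjusted p = 0.719). For both genes lecko 1 and 3 exceeded every control, and lecko 2 lay among the controls or below them. Gbp3 had a log2 fold change of 0.48 and an SD of 0.89. Rsad2 was 5.07, 3.97 and 3.54 CPM in controls and 8.41, 3.56 and 7.04 CPM in lecko (log2 fold change 0.59, SE 0.31, adjusted p = 0.625). Its neighbour in function, Cmpk2, a mitochondrial nucleotide kinase, had a log2 fold change of 0.44 and an SD of 0.62.

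The remaining 8 genes were mixed in level and direction. Ifi27l2a was the most abundant of the set per length, at 75.9 CPM per kilobase of exon, followed by Isg15 at 31.2, Bst2 at 26.4 and Irf9 at 23.6, while Oas3 (0.538) and Oasl1 (0.692) were the least abundant. Ifi27l2a was also the sole gene with a negative log2 fold change (-0.30, SE 0.93, adjusted p = 0.942), at 53.2, 52.7 and 10.4 CPM in controls and 57.7, 9.72 and 27.1 CPM in lecko. Bst2 (tetherin, which holds budding virions at the membrane) was 29.1, 23.7 and 8.68 CPM in controls and 33.2, 9.27 and 21.2 CPM in lecko, a log2 fold change of 0.05. Both genes again had their low values in control 3 and lecko 2.

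Rtp4, a receptor transporter protein, was 27.7, 19.8 and 5.02 CPM in controls and 38.0, 5.2 and 26.0 CPM in lecko. Ifi35 was 25.3, 19 and 13.1 CPM in controls and 28.8, 12.9 and 21.3 CPM in lecko. Trim30a was 12.3, 12.2 and 7.65 CPM in controls and 24.6, 7.97 and 16.3 CPM in lecko. None of these 3 separated the groups, with adjusted p of 0.927, 0.933 and 0.743. Trim30a shares 83.2% of 3190 aligned positions with Trim30d. Xaf1, Ifi44 and Parp14 (an ADP-ribosyltransferase) had log2 fold changes of 0.25, 0.49 and 0.34, each below its SD.

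Across the set, the spread within groups was far above that of other genes. The within-group SD of log2 CPM, pooled over both groups with 4 degrees of freedom, had a median of 0.95 (range 0.39 to 2.05), against a median of 0.12 over all tested genes. It exceeded the 90th percentile of all genes (0.327) in 33 of 33 genes, the 95th (0.438) in 32 and the 99th (0.804) in 19. The median SD was 0.93 in controls (range 0.22 to 1.91) and 0.97 in lecko (range 0.50 to 2.18), where the median over all genes was 0.11 in each group. The lecko SD exceeded the control SD in 23 of 33 genes, against 50.6% of all genes. The median gene of the set spanned 3.36-fold from the lowest to the highest control and 3.53-fold from the lowest to the highest lecko library.

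The genes that ranged widely among controls were those that ranged widely among lecko libraries, with a Pearson r of 0.907 and a Spearman rho of 0.895 between the ranges over the 33 genes (0.63 and 0.489 over all tested genes). This is a description across genes that share the same 6 libraries, and genes are not independent replicates. The r between SD and mean log2 CPM over the 33 genes was -0.26. In edgeR the biological coefficient of variation estimated for each gene alone had a median of 0.616, while the trend at the same abundance was 0.118, and it exceeded 2 times that trend in 33 of 33 genes (4.68% of all genes). Isg15, Oasl2, Oas1a, Ifit1, Usp18 and Rtp4 led the spread, and Ifit2, Rsad2, Eif2ak2, Gbp2, Ifi35 and Herc6 had the least.

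**Figure D3:**
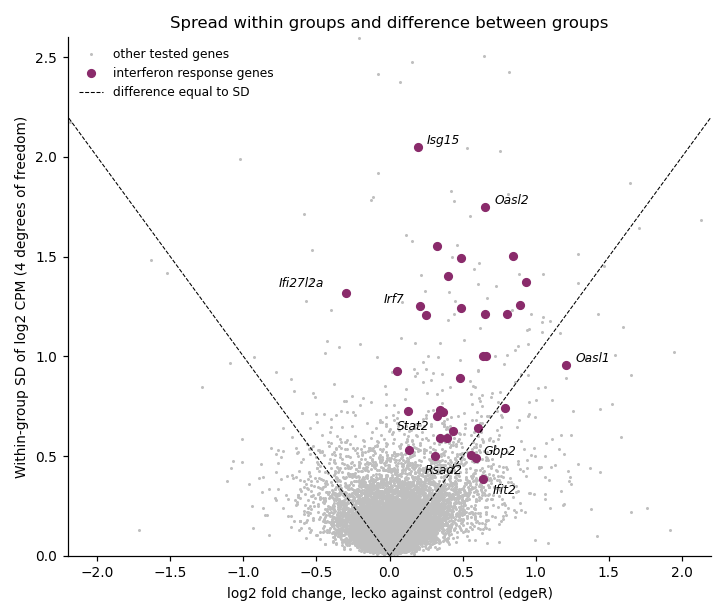
Each point is a tested gene, with the log2 fold change of lecko against control on the x axis and the within-group SD of log2 CPM on the y axis; 5 genes lie outside the axes. Interferon response genes (large points) sit above nearly all others in SD, and 28 of 33 lie between the dashed lines, where the difference is smaller than the SD.

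The comparison of lecko with control asks whether loss of VEGFR2 in lymphatic endothelium went along with a change in these genes in whole skin. No gene of the set passed an adjusted p of 0.05 in edgeR's quasi-likelihood test, where 0.0202% of all tested genes did (3 genes). At an unadjusted p under 0.05, 1 gene was higher in lecko (Ifit2; background 4.88%) and 0 were lower (background 3.68%). The groups overlapped in all 33 genes, so 0 were higher without overlap (background 7.37%) and 0 lower (background 7.23%). The edgeR and overlap counts lay below the background shares. DESeq2 also called 0 at an adjusted p of 0.05, with 3 of 33 genes higher at an unadjusted p (background 3.75%), and limma-voom called 0, with 1 higher at an unadjusted p (background 5.11%). The log2 fold change was smaller than the within-group SD in 28 of 33 genes (61.9% of all genes), the exceptions being Ifit2, Oasl1, Iigp1, Gbp2 and Rsad2.

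The point estimates were nevertheless mostly positive. Log2 fold changes were above 0 in 32 of 33 genes, with a median of 0.48 (range -0.30 to 1.21), against 51.9% and a median of 0.01 over all tested genes. Since the genes move together between libraries, these 32 signs are not 32 separate observations. The value moved with single libraries. The median was 0.84, with 33 of 33 above 0, without lecko 2, and 0.76 without control 1, but 0.13 (24 of 33) without control 3 and 0.12 (20 of 33) without lecko 1. With a term for Y-linked expression, which sets control 1 with the lecko libraries and apart from controls 2 and 3, the median was -0.06 and 14 of 33 were above 0 (smallest adjusted p 0.907). In this fit the group term compares the lecko libraries with control 1 alone, the highest control in all 33 genes. The part of sex in the result was not tested beyond this fit.

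Leaving out lecko 2 raised the number of genes higher at an unadjusted p to 8 (background 5.43%) and the number higher without overlap to 19 (background 14.1%), and no gene passed an adjusted p of 0.05 (smallest 0.141, Ifit2). Leaving out both low libraries, an alternative chosen after seeing the values, gave a median of 0.48, with 17 genes at an unadjusted p (background 5.09%), 19 without overlap (background 20.6%) and a smallest adjusted p of 0.106. That choice removes the low end of both groups by the outcome itself, so the smaller SD it leaves (median 0.30) follows from the choice, and its counts are a description of 4 libraries.

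**Figure D4:**
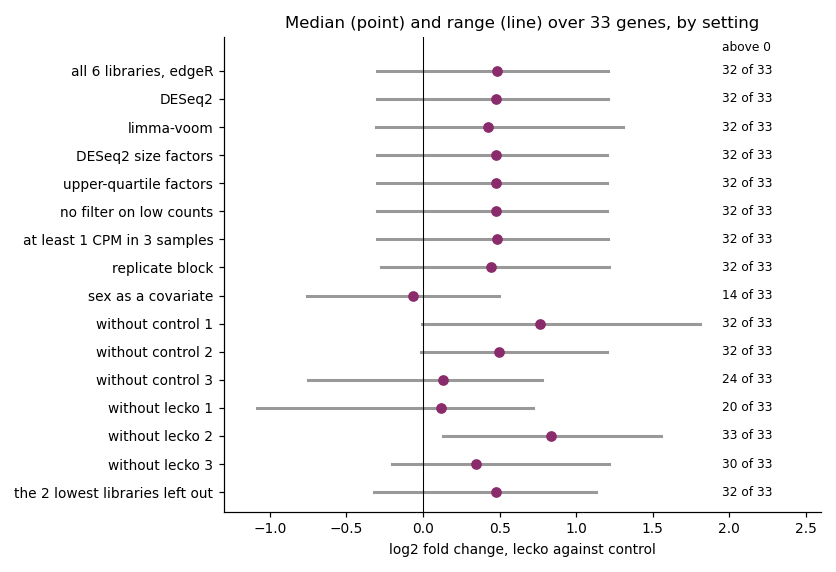
The point is the median and the line the range of the log2 fold change over the 33 genes under each tool, scaling, filter, design or left-out library, with the number above 0 at the right. The median runs from -0.06 with sex as a covariate to 0.84 without lecko 2, and the tools, scalings and filters lie between 0.42 and 0.48.

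Relative to the mean of the set in each library, the median SD fell to 0.42. On that scale Oasl1 was higher in lecko without overlap, by 0.76 (background 0.0269% of all tested genes), Bst2 was lower without overlap, by a difference of -0.39 (background 0.141%), and 31 genes overlapped. Most other genes take on the spread of the set when set against it, so these shares cannot be read like those on the CPM scale. Oasl1 was also low, from 0.285 CPM in control 3 to 3.33 CPM in lecko 1, where the prior count of 2 weighs on the lowest log2 values. Pearson correlations of log2 CPM with Irf7 over the 6 libraries were above 0.9 for 25 of the other 32 genes (1.57% of all tested genes). The highest was 0.995 for Oas1a and the lowest 0.744 for Ifit2, with Rsad2 (0.796) and Iigp1 (0.807) next, so 3 of the genes with the smallest p were the ones least like Irf7. Of genes outside the list, Cyp2b10, Adar (an RNA-editing deaminase), Ddx24, Radx and Trim34a were the most like Irf7, with r of 0.985 to 0.993. Adar was 79.8, 68.2 and 44.3 CPM in controls and 88.0, 46.5 and 79.2 CPM in lecko, and Cyp2b10 was also lowest in control 3 and lecko 2, over a narrower range of 34.5 to 43.6 CPM in controls and 35.4 to 43.8 CPM in lecko.

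The interferon pathway around these genes was read from further lists, whose counts at an unadjusted p stand against the 4.88% of all tested genes that were higher and the 3.68% that were lower. Of 21 interferon ligand genes, 4 were in the table (Ifna15, Ifnk, Ifnz and Ifng), each with 0 to 3 counts in a library, below what the filter requires, so no comparison of ligands was possible at this depth. Of the 6 receptor genes, 1 was higher at an unadjusted p and 0 lower, and their median SD was 0.07. Ifnar1 was 64.5, 73.1 and 66.9 CPM in controls and 71.7, 71.9 and 73.8 CPM in lecko (adjusted p = 0.717). Ifnar2 was 28.3 to 29.1 CPM in controls and 28.1 to 29.3 CPM in lecko, with a log2 fold change of 0.00 (SE 0.07, adjusted p = 0.990). Il10rb, a chain shared with the interferon lambda receptor, had a log2 fold change of 0.16 (unadjusted p = 0.0418), and Ifnlr1 one of -0.10 (adjusted p = 0.780). Control 3 and lecko 2 were lowest in 1 of 6 receptor genes (8.41% of all genes).

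Among 11 genes of receptor signalling, 1 was higher (background 4.88%) and 0 lower at an unadjusted p, with a median log2 fold change of 0.12. That gene was Irf1, a transcription factor induced by interferon gamma, at 20.2, 17.2 and 16.6 CPM in controls and 23.7, 23.7 and 24.7 CPM in lecko. Its groups did not overlap and lecko 2 stood with its group (log2 fold change 0.42, SE 0.09, unadjusted p = 0.00152, adjusted p = 0.379). Tyk2 (0.15) and the phosphatase Ptpn6 (0.14) had small positive log2 fold changes (adjusted p 0.608 and 0.678). Control 3 and lecko 2 were lowest in 6 of the 11 signalling genes (8.41% of all genes).

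Of 14 sensors and adaptors upstream of interferon, 1 was higher (background 4.88%) and 0 lower at an unadjusted p. Tlr9, the endosomal DNA receptor, was 1.38 to 2.18 CPM in controls and 2.37 to 3.80 CPM in lecko (log2 fold change 0.88, SE 0.25, unadjusted p = 0.00707, adjusted p = 0.486). Irf5 (0.21) and the adaptor Mavs (0.11) had adjusted p of 0.624 and 0.673. Irf3, which acts upstream of interferon, was 36.4 to 37.1 CPM in controls and 33.6 to 35.8 CPM in lecko (log2 fold change -0.09, adjusted p = 0.717). Control 3 and lecko 2 were lowest in 5 of the 14 sensors and adaptors (8.41% of all genes).

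The 45 further interferon-stimulated genes tested had 44 positive log2 fold changes (51.9% of all genes), a median of 0.30 and a median SD of 0.47, and 1 was higher and 0 lower at an unadjusted p, below the 4.88% of all genes higher. In 35 of the 45 control 3 and lecko 2 were again lowest (8.41% of all genes). Slfn9 had the smallest p of them, with a log2 fold change of 0.37 and an unadjusted edgeR p of 0.0162. Epsti1 (0.66) and Mlkl, the necroptosis effector (0.37), followed in order of p, with unadjusted p of 0.0667 and 0.0803. Their adjusted p ran from 0.510 to 0.615.

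Of 21 tested genes led by interferon gamma, 4 were higher (background 4.88%) and 0 lower (background 3.68%) at an unadjusted p, with a median log2 fold change of 0.51, and 14 had control 3 and lecko 2 lowest (8.41% of all genes). Ciita, the master regulator of MHC class II genes, had the smallest p of all the lists. It was 11, 10.7 and 11 CPM in controls and 15, 16.6 and 17.5 CPM in lecko, without overlap and with a narrow spread. Its log2 fold change was 0.59 (SE 0.10, unadjusted p = 0.00017, adjusted p = 0.268). Gbp9 (0.37, unadjusted p = 0.0246) and Cd274, which encodes PD-L1 (0.34, unadjusted p = 0.0281), were next. None of the 5 lists with tested genes had a call at an adjusted p of 0.05.

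Markers of cells that skin holds were summed per library, and their part in the results above was not tested. Pan-leukocyte markers summed to 399.6, 465.3 and 335.8 CPM in controls and 606.0, 476.3 and 504.1 CPM in lecko, without overlap, and 7 of 10 were higher at an unadjusted p (background 4.88%, median log2 fold change 0.53). Lecko 2 lay above every control on the sum of these markers and was the second lowest library on the sum of the interferon response genes. Within groups, lecko 2 was the lowest lecko library and control 3 the lowest control on both of these sums. The same held for the macrophage and the T and NK cell sums, and not for the neutrophil sum. It held by very little for the dendritic and Langerhans cell sum, at 222.35 CPM in lecko 2 and 222.41 CPM in lecko 3. The B cell sum had this order too, but at very low levels, with 0.97 CPM in control 3 and 1.04 CPM in control 1. The mean Pearson r with Irf7 over the 6 libraries, a description, was 0.547 for pan-leukocyte, 0.634 for macrophage and 0.741 for T and NK cell markers. Over the 32 interferon response genes other than Irf7 the median was 0.964 (lowest 0.744), a different summary from these means. Control 3 and lecko 2 were the 2 lowest of the 6 libraries in 0 of 10 pan-leukocyte and 1 of 10 macrophage markers. They were so in 2 of the 7 T and NK cell markers tested. Macrophage markers summed to 544.8, 729.1 and 442.4 CPM in controls 1 to 3 and 847.6, 644.2 and 741.6 CPM in lecko 1 to 3. Dendritic and Langerhans cell markers summed to 185.5 to 219.1 CPM in controls and 222.4 to 239.8 CPM in lecko, and T and NK cell markers to 23.4 to 39.1 and 36.3 to 52.7 CPM. Neutrophil markers summed to 121.8 CPM in control 1 and 130.4 CPM in lecko 1, and to 20.1 to 43.6 CPM in the other 4 libraries, with Ly6g at 0 in some. That pattern was mostly S100a8 (859, 12 and 210 counts in controls, 795, 159 and 24 in lecko) and S100a9 (901, 26 and 258, then 1015, 205 and 46). Among controls 1 to 3, Csf3r had 38, 38 and 40 counts, Mmp9 180, 211 and 133, and Cxcr2 133, 61 and 117. B cell markers summed to 0.96 to 1.49 CPM in every library, with Ms4a1 and Pax5 at 0 in some.

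Plasmacytoid dendritic cells, known as large producers of type I interferon, were represented by 10 genes that summed to 928.1 to 1032.6 CPM in controls and 883.4 to 995.4 CPM in lecko. That sum was mostly Ly6d, with 11651 to 14393 counts per library, which keratinocytes also express. Of the 7 genes of this list that were tested, 2 were higher and 1 lower at an unadjusted edgeR p under 0.05 (backgrounds 4.88% and 3.68%). Siglech, a defining gene, had 3, 13 and 17 counts in controls and 38, 24 and 35 in lecko. Ccr9 had 38, 34 and 33 counts in controls and 54, 42 and 45 in lecko. Tcf4 had 2388, 2670 and 2506 counts in controls and 2888, 2732 and 2933 in lecko. Runx2 and Cd209d overlapped between the groups. Cox6a2 went the other way, with 743, 651 and 853 counts in controls and 716, 600 and 540 in lecko. Pacsin1 had 6, 11 and 8 counts in controls and 12, 5 and 6 in lecko, and Spib and Klk1 had at most 7. Lymphatic endothelial markers summed to 358.9 to 408.8 CPM in controls and 311.2 to 338.2 CPM in lecko, and endothelial markers at large to 352.5 to 383.5 and 300.7 to 324.6 CPM. Fibroblast markers summed to 22221 to 35763 CPM in controls and 26718 to 29357 CPM in lecko, and skeletal muscle markers to 4673 to 5194 and 3423 to 4540 CPM. The lymphatic, endothelial and muscle sums were lower in lecko without overlap. The largest part of the lymphatic sum was Ccl21a, with 2681, 2576 and 2251 counts in controls and 1658, 2026 and 1407 in lecko. Prox1 of the same list was not lower, with 332, 344 and 381 counts in controls and 381, 371 and 464 in lecko. At an unadjusted edgeR p under 0.05, 2 of 7 lymphatic, 5 of 7 endothelial and 4 of 6 muscle markers were lower (background 3.68%) and 0 higher.

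**Figure D5:**
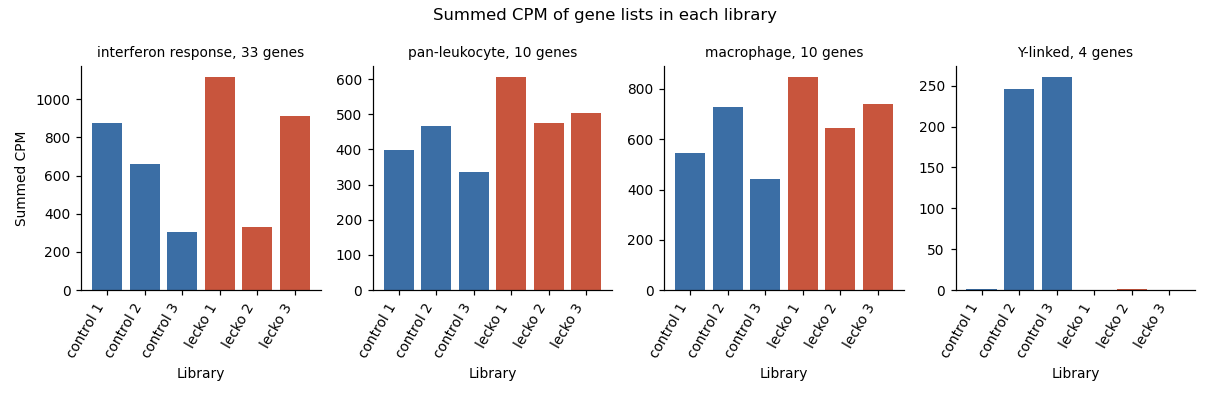
Bars are the summed CPM of the interferon response genes, of 10 pan-leukocyte and 10 macrophage markers and of 4 Y-linked genes in each library, with y axes from 0. Lecko 2 is the lowest lecko library for interferon response genes (330.1 CPM) and for the pan-leukocyte and macrophage sums. On the pan-leukocyte sum it lies above every control (476.3 CPM). Y-linked genes are high in controls 2 and 3.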

How the data were processed

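Polyadenylated RNA from 6 ear skin samples was analysed, 3 control and 3 lecko, grouped by the sample titles. The authors deposited 1 table of estimated counts per gene, and 9.6% to 10.5% of the values in a library are not whole. The tools RSEM 1.3.1, Bowtie2 2.4.5 and HISAT2 2.2.1 and the build GRCm38.p6 are named, with no role or order, per the submitters' processing notes. The annotation and strand setting were not given in the sources used here. Without strand, reads of overlapping antisense genes cannot be told apart, which touches Usp18, Dhx58, Oasl1, Eif2ak2, Gbp2 and Ifi35. Exons of Herc6, Irf9, Rtp4 and Parp14 overlap another gene on the same strand, which a strand setting would not separate. RSEM divides reads among similar genes.

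Estimated counts were rounded, filtered with filterByExpr (minimum count 10, minimum total 15, leaving out 3626 genes) and scaled by TMM. Lecko was compared with control in edgeR 4.0.16 (robust quasi-likelihood, R 4.3.3) and p-values of 14856 genes were adjusted by Benjamini-Hochberg (threshold 0.05). A prior count of 2 was used for log2 CPM. The labels do not tie libraries to animals, so p-values reflect how far these samples differ, which may be technical. With 17242921 or more counts a library, counting error is small beside this spread for all but the lowest genes.

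Values in every library are given for the 6 genes with the smallest p, the 6 with the largest and the 6 with the smallest SD, the 4 with the highest level per exon length (GENCODE M21) and for Isg15, Ifit1, Irf7, Stat2 and Usp18; Zbp1 was added after its values were seen. A gene of the pathway lists that was to be named is not reported here. The genes and all lists were chosen with earlier results of these data known. Alternatives were DESeq2 1.42.0, limma-voom (limma 3.58.1), other scalings and filters, a prior count of 0.5, the replicate number or Y-linked expression (over 10 CPM) as a term, and leaving out libraries. The fit was tested on simulated counts.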

Additional observations from a re-analysis of the deposited data

How the results depend on the processing

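No gene of the set passed an adjusted p of 0.05 under any tool, scaling, filter, design or left-out library that was run. The number higher at an unadjusted p, 1 in edgeR with all libraries, was 3 with DESeq2, 0 without the filter and 0 with sex as a covariate; it ranged from 0 to 8 when each library was left out, and the number higher without overlap from 0 to 19, the highest in both cases without lecko 2. Leaving out both control 3 and lecko 2 gave 17 and 19 and a median SD of 0.30. Of 300 alternative log2 fold changes over the 20 genes with values in every library, 270 kept their direction and 30, in 13 genes, reversed. With sex as a covariate the reversed values were -0.45 for Bst2, -0.025 for Eif2ak2, -0.27 for Ifi35, -0.028 for Ifit1, -0.51 for Irf7, -0.34 for Irf9, -0.58 for Isg15, -0.38 for Oas1a, -0.18 for Oasl2, -0.27 for Rtp4, -0.15 for Stat2 and -0.26 for Usp18. These values compare the lecko libraries with control 1 alone, because the Y-linked term takes up controls 2 and 3. A part of sex was not tested apart from this. Leaving out each library in turn gave ranges of -0.44 to 0.41 for Bst2, -1.08 to 0.13 for Ifi27l2a, -0.17 to 0.39 for Ifi35, -0.30 to 0.76 for Irf7, -0.16 to 0.46 for Irf9, -0.32 to 0.82 for Isg15, -0.31 to 0.85 for Oas1a, -0.18 to 0.89 for Rtp4 and -0.061 to 1.08 for Usp18.

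Deviations of same-numbered libraries from their group means correlated at 0.337, -0.072 and 0.035 over all genes. Control 3 correlated better with lecko 2 (0.234) than with its own number. The labels do not say whether the numbers pair the samples, and these correlations cannot decide it with 3 libraries a group. With the replicate block the median log2 fold change was 0.44, and 32 of 33 genes were above 0. Sex and the other differences of control 1 cannot be told apart, and 3 libraries a group limit what can be detected in genes with this spread.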
